A study of Mus musculus with 9 samples.

Results

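The genes of MHC class II antigen presentation were examined in splenic monocytes of mice whose gut microbiome had been altered with vancomycin. The set held 9 genes of the 46072 in the deposited tables, each taken by its symbol: the class II chain genes H2-Aa, H2-Ab1 and H2-Eb1, the invariant chain gene Cd74, the peptide-loading genes H2-DMa and H2-DMb1, the transactivator gene Ciita, and the costimulator genes Cd86 and Cd40. Each symbol had 1 row, so no measured value was needed to choose between rows. The set itself was chosen with earlier results of these data known. Female C57BL/6 mice, aged 8 to 10 weeks per the study's methods, were gavaged with water (Con) or with vancomycin at 2 mg per mouse per day (Van) for 6 days and then rested without antibiotic, for 6 to 8 days per the labels and for 8 days per the study's account of the RNA libraries. The remaining group (VanLip) had the vancomycin gavage and then retro-orbital L654, a lipid of Bacteroidota that is a ligand of the receptor TLR2 and was purified from Porphyromonas gingivalis, on days 7, 9 and 11 per the labels and on rest days 0, 2 and 4 per the study's methods, which may be the same days. There were 3 libraries in each group, made from freshly isolated cells that were not stimulated in culture. Monocytes were obtained with a magnetic kit that removes other cells. For the culture assays the study gives its product as cells with CD11b and low side scatter that lack CD3e (T cells), CD45R (B cells), CD117, Ly-6G (neutrophils), NK1.1 (NK cells) and Siglec F (eosinophils). The libraries were bulk RNA of that preparation, which can still hold other cell types. Per the methods, 3 mice of each group were used, so that the 3 libraries of a group would be 1 mouse each, although the labels do not tie a library to a mouse. The p-values measure the spread between these libraries. Because the Con and Van mice were given no lipid, the comparison of VanLip with Con differs in both the antibiotic and the lipid. The study describes PBS injections for the controls of its plasma and culture experiments. Its account of the RNA groups states neither whether Con and Van mice were injected nor the L654 dose. Whether VanLip and Van differ in the lipid alone is therefore not known.

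MHC class II molecules display peptides from endocytosed proteins to CD4 T cells. An alpha and a beta chain assemble on the invariant chain, which guides them to endosomes, where the H2-DM dimer exchanges the last invariant chain fragment for a peptide. CIITA does not bind DNA itself but joins RFX, CREB and NF-Y proteins on the X and Y boxes shared by class II promoters, and interferon-gamma acts on class II largely through it. CD86 engages CD28 on T cells as a second signal, and CD40 receives CD40 ligand from them. Monocytes carry less class II than dendritic cells or B cells and can raise it on activation.

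The X and Y box cores of class II promoters are shown first, because CIITA acts through proteins bound to these boxes and Ciita is itself a member of the set. RefSeq windows on GRCm38.p6, from 250 bases before to 50 bases after a transcription start, were used for 4 members (H2-Aa, H2-Eb1, H2-DMa and H2-DMb1), and windows of H2-Ab1, Cd74, Ciita, Cd86 and Cd40 were not used here. Both strands were searched for ACNGATG, the core of the X box, and for TGATTGG, the core of the Y box, which do not overlap each other in the stretches below. The X core was present in 9.85% of 32851 windows of that length and the Y core in 7.82%. An X core followed on the same strand by a Y core after 10 to 30 bases was present in 10 windows, which is 0.0304% of them, and 4 of these belonged to H2-Eb1, H2-Eb2, H2-DMb1 and H2-DMb2. The stretches of H2-Aa, H2-Eb1 and their relatives H2-Eb2 and H2-DMb2 read as follows, 5′ to 3′ on the strand of the gene, with both cores in capitals.
H2-Eb1: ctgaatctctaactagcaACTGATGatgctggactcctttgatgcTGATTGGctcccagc
H2-Eb2: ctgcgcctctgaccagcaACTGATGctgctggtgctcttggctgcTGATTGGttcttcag
H2-DMb2: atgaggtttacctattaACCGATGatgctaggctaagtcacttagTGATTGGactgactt
H2-Aa: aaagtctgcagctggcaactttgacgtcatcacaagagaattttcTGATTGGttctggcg
These lie at chr17:34305761-34305820 (plus strand) for H2-Eb1, chr17:34325528-34325587 (plus strand) for H2-Eb2, chr17:34145112-34145171 (plus strand, within the annotated body of H2-DMb2 but in no exon) and chr17:34287859-34287918 (minus strand) for H2-Aa. The H2-Eb1 stretch also lies within the antisense gene Gm20513. The cores were 20 bases apart in H2-Eb1 and H2-Eb2 and 21 bases apart in H2-DMb1 and H2-DMb2, whereas the H2-Aa stretch held the Y core alone. The H2-Aa window also held an X core, but outside this stretch and not in the paired arrangement. The pair of H2-DMb1 overlaps an annotated exon and is not shown. Neither core was found in the 2 windows of H2-DMa. A match of letters is a description of the window and was not tested for binding.

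Class II transcripts were among the most abundant of these monocytes, and their order hardly varied. Levels between genes are compared as FPKM, which is scaled to transcript length and to the mapped fragments of a library. By mean FPKM in Con, Cd74 was the 11th gene of all, H2-Aa the 48th, H2-Ab1 the 71st and H2-Eb1 the 110th, while H2-DMa was 671st, H2-DMb1 824th, Cd86 2145th, Ciita 4275th and Cd40 4579th. In VanLip the ranks of Cd74 and H2-Aa by mean FPKM were 24 and 127, and that of Ciita was 6710. The order Cd74, H2-Aa, H2-Ab1, H2-Eb1, H2-DMa, H2-DMb1, Cd86 held in all 9 libraries, with Ciita and Cd40 below them. Ciita stood above Cd40 in 4 of the 9 libraries, which were the 3 Van libraries and Con replicate 1. Neighbours whose ranges overlapped within a group were H2-Aa and H2-Ab1 in all 3 groups, H2-Ab1 and H2-Eb1 in VanLip, H2-DMa and H2-DMb1 in Con, and Ciita and Cd40 in Con and VanLip. The members together made up 1.12% ± 0.166 of the summed FPKM (SD, n = 3) in Con, and the share was 0.896% ± 0.135 in Van and 0.654% ± 0.182 in VanLip.

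Facts of the whole series touched these values. The expected counts summed to between 43070361 and 61383806 per library in Con and Van and to between 170503470 and 184720704 in VanLip. The most frequent low count was 1.33 in the Con and Van libraries but 2 in the VanLip libraries. Such counts scale with read length, and since the labels give 1 read length for all libraries, no difference in read size is shown by anything but these counts. The depth changed with the VanLip group and cannot be told apart from it. In addition, a pair of libraries stood apart in class II. VanLip replicate 1 had between 0.531 and 0.631 times the mean of the other VanLip libraries in H2-Aa, H2-Ab1, H2-Eb1 and Cd74 (FPKM), and Con replicate 1 had between 1.22 and 1.28 times the mean of the other Con libraries in the same 4 genes and 1.52 times in Ciita. Without Con replicate 1 the median log2 fold change of the members in Van against Con was -0.19, in place of -0.33, and without VanLip replicate 1 that in VanLip against Van was -0.22, in place of -0.33. A further limit is shared sequence: 13.7% of the 1305 windows of 100 bases in the H2-DMb1 transcript also occur in H2-DMb2, and their longest transcripts are 94.3% identical over 1211 aligned bases, so reads of this pair may be exchanged. No such window of the other 8 members was found in another gene. H2-DMa overlaps Brd2 on the opposite strand (70.6 FPKM over all libraries) and Ciita overlaps Dexi likewise (7.12 FPKM), and although the library kit keeps strand, how the estimates used it is not given in the sources used here. Cd74 overlaps the microRNA gene Mir5107 on the same strand (55.6 FPKM), where strand cannot separate the reads.

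Across the 3 contrasts, class II genes were lowest in VanLip and the costimulators differed mostly in Van. In VanLip against Con, 7 of the 9 members were called lower by DESeq2 (adjusted p no higher than 0.05) and none was called higher, where 6.67% of the 16552 genes tested were called, 3.69% lower and 2.98% higher. With TMM library sizes the calls over all genes in this contrast were 657 higher and 500 lower, in place of 494 and 610, and the same number of members, 7, was called. In Van against Con, 1 member was called, Cd40, which fell, where 4.34% of 18516 genes were called, 2.06% lower and 2.27% higher. In VanLip against Van, 4 members were called, of which H2-Ab1, Ciita and Cd86 fell and Cd40 rose, where 9.86% of 18025 genes were called, 5.28% lower and 4.58% higher. The edgeR quasi-likelihood test, an alternative, was stricter throughout: it called 1 member, Ciita, in VanLip against Con, where it called 1.78% of all genes, and 0 in Van against Con and in VanLip against Van, where it called 1.21% and 5.07% of all genes. For those contrasts 3 and 6 members had an unadjusted edgeR p under 0.05, beside 6 and 5 with DESeq2. The median log2 fold change of the members was -0.33 between Van and Con, -0.68 between VanLip and Con and -0.33 between VanLip and Van, beside -0.01, 0.01 and 0.01 over all genes tested. Groups did not overlap in normalised count for 7 members lower in VanLip than in Con, where 11.3% of the genes tested were lower without overlap. For Van against Con there were 4 such members lower and 1 higher, beside 10.3% and 10.4% of the genes tested, and for VanLip against Van 5 lower and 1 higher, beside 12.8% and 13.1%. The contrasts share libraries, so they are not independent of each other. In a likelihood-ratio test of any difference among the 3 groups, 8 of the 9 members were called, and Cd74 had an adjusted p of 0.0561 (DESeq2). The share of all genes that this test called was not computed, so how far the members exceed it is not known.

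**Figure D1:**
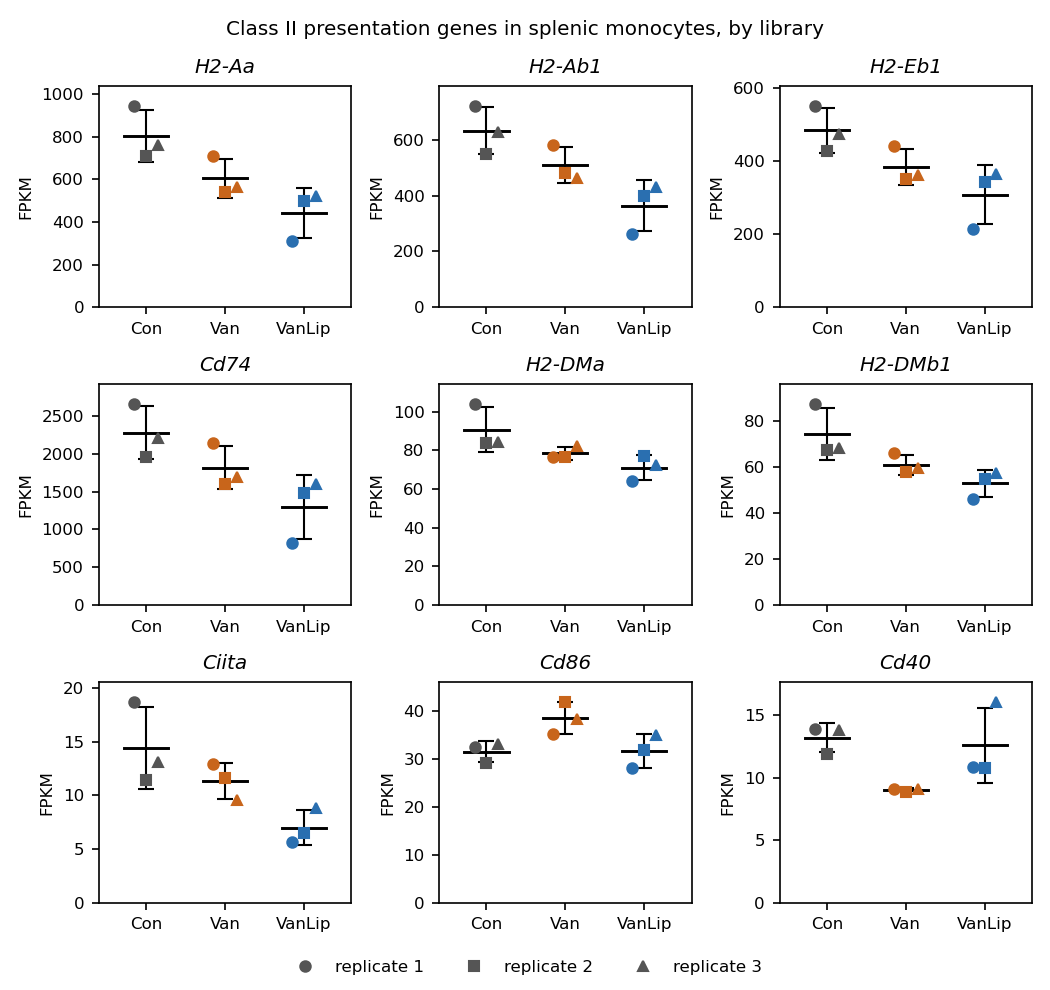
FPKM of the 9 genes in each library (points; circle, square and triangle are replicates 1, 2 and 3), with the mean (long bar) and SD (whiskers) of each group of 3; every vertical axis starts at 0. In the first 4 panels and in the Ciita panel the Con libraries sit above the VanLip libraries without overlap, with VanLip replicate 1 lowest, whereas Cd86 is highest and Cd40 lowest in Van.

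The class II chain genes lay on chromosome 17 of GRCm38 within the MHC. H2-Aa, the alpha chain of I-A (ENSMUSG00000036594; 34282744 to 34287823, minus strand), measured 943, 711 and 760.3 FPKM in the Con libraries, 710.2, 539.8 and 563 in Van and 309, 496 and 524 in VanLip. All Con libraries were above all Van and VanLip libraries, and the Van and VanLip ranges did not meet. Means with SD (n = 3) were 805 ± 122 FPKM for Con, 604 ± 92.4 for Van and 443 ± 117 for VanLip. H2-Aa fell in VanLip against Con with a log2 fold change of -0.87 (standard error 0.18, DESeq2 adjusted p = 0.000166). That call was made in 15 of 20 alternatives, including each of the 9 fits that left out 1 library, but not with a replicate block. For Van against Con the log2 fold change was -0.42 (standard error 0.18, adjusted p = 0.208) and for VanLip against Van -0.45 (adjusted p = 0.106), neither of which passed. The former was -0.29 without Con replicate 1 (adjusted p = 0.597) and the latter -0.25 without VanLip replicate 1 (adjusted p = 0.346).

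H2-Ab1, the beta chain of I-A (ENSMUSG00000073421; 34257689 to 34269419, plus strand), measured 721, 549.8 and 629 FPKM in Con, 582, 482 and 463 in Van and 262, 398 and 433 in VanLip. The VanLip libraries were below every library of the other groups, and Van replicate 1 lay within the Con range. H2-Ab1 fell in VanLip both against Con, by 0.82 on the log2 scale (standard error 0.17, DESeq2 adjusted p = 0.000132), and against Van, by 0.49 (standard error 0.17, adjusted p = 0.0439). The latter call was made in 6 of 20 alternatives. It was lost in 5 of the 9 fits that left out 1 library (Con replicate 3, any Van library or VanLip replicate 1), with values from -0.55 to -0.30 and adjusted p from 0.0519 to 0.259.

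H2-Eb1, the beta chain of I-E (ENSMUSG00000060586; 34305867 to 34316674, plus strand), measured 549.8, 427 and 474 FPKM in Con, 441, 351 and 361 in Van and 215, 342 and 366 in VanLip. VanLip was below Con in every library but overlapped Van. Its log2 fold change for VanLip against Con was -0.68 (standard error 0.17, DESeq2 adjusted p = 0.00411), and the call was lost without Con replicate 1 (-0.57, adjusted p = 0.0680). C57BL/6 mice carry a defective gene for the partner alpha chain of I-E, and the row named H2-Ea-ps was at 0 FPKM in every Con and Van library.

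Cd74, the invariant chain that escorts class II chains to endosomes (ENSMUSG00000024610; chromosome 18, 60803848 to 60812652), was the most abundant member, with 2657, 1962 and 2209 FPKM in Con, 2141, 1606 and 1698 in Van and 816, 1479 and 1595 in VanLip. Every VanLip library was below every Con library, and VanLip also lay below Van. In VanLip replicate 1 the ratio of Cd74 to the summed chains was the lowest of the 9 libraries, 1.04 against 1.20 and 1.21 in the other VanLip libraries. Cd74 fell in VanLip against Con by 0.84 on the log2 scale (standard error 0.27, DESeq2 adjusted p = 0.0323). Among the class II calls in VanLip against Con this was the one made in the fewest alternatives, 8 of the 20 computed, and it was made in 3 of the 9 fits that left out 1 library, where its adjusted p ran from 0.00171, without VanLip replicate 1, to 0.226, without Con replicate 1. Its size ran from -1.02 to -0.60 over the 9 fits.

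The peptide-loading genes had smaller fold changes than the chains they load. H2-DMa (ENSMUSG00000037649; chromosome 17, 34119541 to 34139101) measured 104, 83.8 and 84.4 FPKM in Con, 76.7, 76.5 and 82.2 in Van and 64.1, 77.0 and 72.3 in VanLip, so both vancomycin groups were below Con and overlapped each other. It fell in VanLip against Con by 0.37 (standard error 0.11, DESeq2 adjusted p = 0.0153), a call lost without Con replicate 1 (-0.25, adjusted p = 0.125) and without VanLip replicate 1 (-0.31, adjusted p = 0.0781). H2-DMb1, its partner (ENSMUSG00000079547; chromosome 17, 34153072 to 34160230), measured 87.4, 67.5 and 68.2 FPKM in Con, 66.0, 57.7 and 59.3 in Van and 46.2, 54.8 and 57.5 in VanLip. H2-DMb1 fell in VanLip against Con by 0.51 (standard error 0.13, DESeq2 adjusted p = 0.00215) and was called in each of the 9 fits that left out 1 library. The ratio of H2-DMa to H2-Aa (FPKM, mean ± SD, n = 3) was 0.113 ± 0.00416 in Con, 0.132 ± 0.0208 in Van and 0.167 ± 0.0361 in VanLip, and reached 0.207 in VanLip replicate 1. These ratios overlapped between Con and Van but not between Con and VanLip, and the difference between the fold changes of the 2 genes was not tested.

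Ciita had the largest fold change of the members in VanLip against Con and in VanLip against Van. The gene (ENSMUSG00000022504; chromosome 16, 10480059 to 10528418) measured 18.7, 11.4 and 13.1 FPKM in Con, 12.9, 11.6 and 9.60 in Van and 5.67, 6.50 and 8.83 in VanLip. Every VanLip library was below every Con and Van library, and the Con and Van ranges overlapped. The mean in VanLip was 48.6% of that in Con, and the log2 fold change was -1.06 (standard error 0.20, DESeq2 adjusted p = 9.83e-06). The call was made in 18 of 20 alternatives, including the edgeR quasi-likelihood test (adjusted p = 0.0366), which called no other member in this contrast. Against Van, Ciita fell in VanLip by 0.71 (standard error 0.20, DESeq2 adjusted p = 0.00675), while without VanLip replicate 1 the value was -0.58 with an adjusted p of 0.239, and without Van replicate 1 it was -0.59 with an adjusted p of 0.0787. For Van against Con the log2 fold change of Ciita was -0.36 (adjusted p = 0.405), and -0.11 without Con replicate 1.

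The costimulators differed from the class II genes and from each other. Cd86 (ENSMUSG00000022901; chromosome 16, 36603869 to 36666081, minus strand) measured 32.5, 29.2 and 33.1 FPKM in Con, 35.3, 42.0 and 38.3 in Van and 28.1, 31.9 and 35.1 in VanLip. All Van libraries were above all others. Its log2 fold change was 0.31 for Van against Con (standard error 0.10, DESeq2 adjusted p = 0.0582, just short of the threshold), and it fell in VanLip against Van by 0.31 (standard error 0.10, adjusted p = 0.0308). The latter call was made in 8 of 20 alternatives and lost in 5 of the 9 fits that left out 1 library (Con replicate 3, Van replicate 2 or 3, or VanLip replicate 1 or 2), with values from -0.32 to -0.22 and adjusted p from 0.0511 to 0.203. Between VanLip and Con the 95% interval of the log2 difference ran from -0.20 to 0.20 (adjusted p = 0.998).

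Cd40 (ENSMUSG00000017652; chromosome 2, 165055627 to 165072948, plus strand) measured 13.9, 11.9 and 13.8 FPKM in Con, 9.12, 8.89 and 9.06 in Van and 10.9, 10.8 and 16.1 in VanLip. Van was below both other groups in every library and varied little, at 9.03 ± 0.121 FPKM, whereas VanLip spread widely, at 12.6 ± 3.02 (SD, n = 3 each). Cd40 fell in Van against Con by 0.58 on the log2 scale (standard error 0.15, DESeq2 adjusted p = 0.00883), which did not pass without Con replicate 1 (-0.47, adjusted p = 0.106) or without Van replicate 3 (-0.48, adjusted p = 0.0964). It rose in VanLip against Van with a log2 fold change of 0.48 (standard error 0.15, adjusted p = 0.0258), a call made in 13 of 20 alternatives. It was lost without VanLip replicate 3, the highest VanLip library (0.33, adjusted p = 0.155), without Van replicate 2 (0.49, adjusted p = 0.0852) and without Van replicate 3 (0.37, adjusted p = 0.155). Between VanLip and Con the interval ran from -0.40 to 0.20 (adjusted p = 0.801). The ratio of Cd86 to Cd40 was 2.34, 2.46 and 2.40 in Con, 3.87, 4.73 and 4.23 in Van and 2.59, 2.96 and 2.19 in VanLip (FPKM), so that the Van ratios stood above all others and those of Con and VanLip overlapped.

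**Figure D2:**
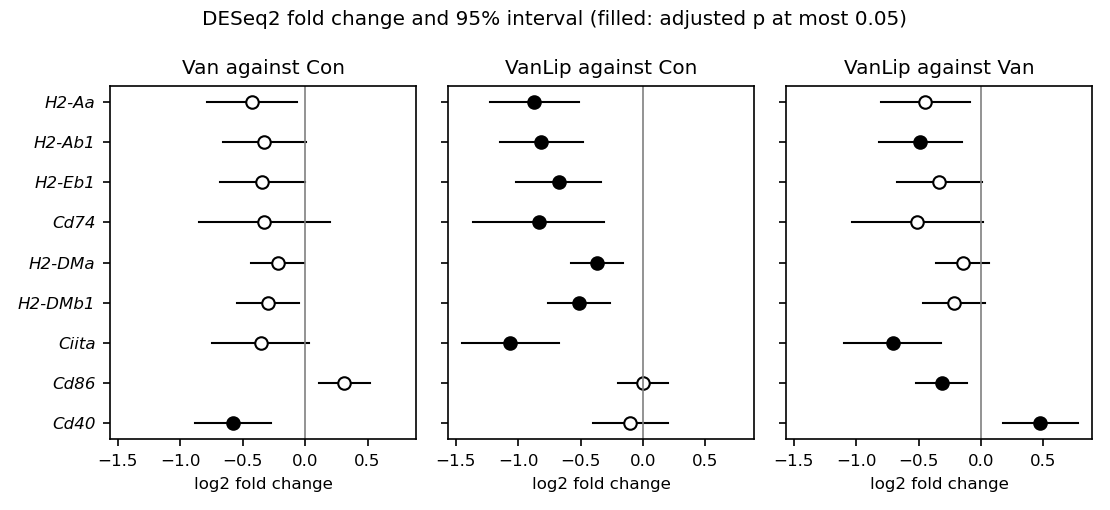
DESeq2 log2 fold change (points) with its 95% interval (lines) for each gene in the 3 contrasts; filled points passed the threshold of 0.05 on the adjusted p, and the vertical line marks no difference. The 7 class II genes are filled and left of the line in the middle panel, from -0.37 for H2-DMa to -1.06 for Ciita, where Cd86 and Cd40 span it.

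Leaving out both libraries that stood apart reduced the class II differences without turning them. Without Con replicate 1 and VanLip replicate 1, the log2 fold changes for VanLip against Con were -0.53 for H2-Aa, -0.52 for H2-Ab1, -0.46 for Cd74 and -0.70 for Ciita, which were called (DESeq2 adjusted p of 0.00241, 0.00163, 0.0194 and 0.00184), and -0.37 for H2-Eb1, -0.19 for H2-DMa and -0.29 for H2-DMb1, which were not (adjusted p of 0.0613, 0.306 and 0.0930). Without VanLip replicate 1 alone, 6 members were called in this contrast, and without Con replicate 1 alone, 4. The calls over all genes were then 846 and 606, in place of 1104. The Van against Con contrast gained calls without VanLip replicate 1, with H2-Aa, H2-Eb1 and Cd86 joining Cd40 at unchanged fold changes of -0.42, -0.34 and 0.31 (adjusted p of 0.0198, 0.0471 and 0.00665). VanLip replicate 1 belongs to neither group of that contrast, and a fit of the Con and Van libraries alone likewise called 5 members, adding H2-Ab1 (-0.33, adjusted p = 0.0496). The calls over all genes also rose in these fits, to 913 and 990, in place of 803.

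The ratios of H2-Aa to H2-Ab1 and of Cd74 to the summed chains overlapped between the groups, whereas that of H2-Eb1 to H2-Ab1 did not overlap between VanLip and the others. None of these ratios was tested. As FPKM ratios with SD (n = 3), H2-Aa was 1.27 ± 0.0542 times H2-Ab1 in Con, 1.19 ± 0.0559 times in Van and 1.21 ± 0.0339 times in VanLip. Cd74 was 1.18 ± 0.0194, 1.21 ± 0.0351 and 1.15 ± 0.0941 times the sum of the 3 chains in the same groups. H2-Eb1 was 0.765 ± 0.0119 times H2-Ab1 in Con, 0.756 ± 0.0251 times in Van and 0.842 ± 0.0204 times in VanLip, and each VanLip ratio was above each of the others.

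Other genes of the pathway were described from a list of 39 genes, of which 36 received an adjusted p. In Van against Con, 1 was called lower and 1 higher, in VanLip against Con 3 lower and 1 higher, and in VanLip against Van 5 lower and none higher, beside the shares of called genes above. None was called in VanLip against Con once Con replicate 1 was left out, nor by edgeR or limma in either contrast against Con. The median log2 fold changes of the list were -0.01, -0.07 and -0.04. Of the other class II genes, H2-DMb2, the second beta chain of H2-DM, fell in VanLip against Con by 0.63 (16.6 ± 2.24 FPKM in Con and 11.2 ± 2.50 in VanLip, SD, n = 3 each; adjusted p = 0.0106), and H2-Ob, a chain of the H2-DM inhibitor H2-O, fell by 0.55 (adjusted p = 0.00849). H2-Oa, its partner, had a value of -0.36 (adjusted p = 0.286) and H2-Eb2 of -0.13 (adjusted p = 0.865).

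Among proteins that bind class II promoters, Rfx5 fell in Van against Con by 0.36 (7.00 ± 0.123 and 5.49 ± 0.369 FPKM, adjusted p = 0.0445), and its value for VanLip against Con was -0.07 (adjusted p = 0.809). The call in Van against Con was not made without independent filtering, by edgeR or by limma. Nfya and Creb1 fell in VanLip against Van by 0.24 and 0.25 (adjusted p of 0.0113 and 0.00286) and neither was called against Con. The interferon-gamma receptor gene Ifngr1 rose in VanLip against Con with a log2 fold change of 0.19 (adjusted p = 0.0114). Irf1, a gene induced by interferons, measured 218 FPKM in Con replicate 1 and between 113 and 140.2 FPKM in the other 8 libraries. The Con library that was highest in class II was therefore also highest in Irf1, while the VanLip library lowest in class II was not lowest in Irf1. What part this had in the contrasts was not tested.

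In the endosome, Ctss, the cathepsin that trims the invariant chain, lay between 1041 and 1114 FPKM in all 9 libraries, and no gene for endosomal proteolysis or reduction was called against Con. Lgmn, an asparaginyl endopeptidase, fell in VanLip against Van by 0.30 (adjusted p = 0.00605). Of the ligases that mark class II for turnover, March8 rose in Van against Con with a value of 0.37 (adjusted p = 0.0105), and March1 was not called in any contrast. Cd83, which limits March1-driven turnover of class II and CD86, measured 113, 93.1 and 118 FPKM in Con, 152, 93.2 and 74.3 in Van and 38.7, 66.6 and 57.3 in VanLip. The VanLip libraries were below all others, and Cd83 fell in VanLip against Con by 1.01 (adjusted p = 0.0339) and against Van by 0.99 (adjusted p = 0.0297). Cd80, the other ligand of CD28, fell in VanLip against Van by 0.61 (adjusted p = 0.0376). None of 5 TRAF adaptors of CD40 was called in any contrast.

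Class I presentation genes were set beside these as the nearest other pathway. Of 12, none was called in Van against Con or VanLip against Van, and Nlrc5, the class I transactivator and a relative of Ciita, fell in VanLip against Con by 0.53 (28.7 ± 4.83 and 20.0 ± 4.23 FPKM, SD, n = 3 each; adjusted p = 0.0422). The median log2 fold changes of the 12 genes were -0.11, -0.09 and 0.01 in the 3 contrasts. H2-K1, H2-D1 and B2m had values between -0.11 and 0.02 against Con. No test of the difference between the class I and class II lists was made.

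**Figure D3:**
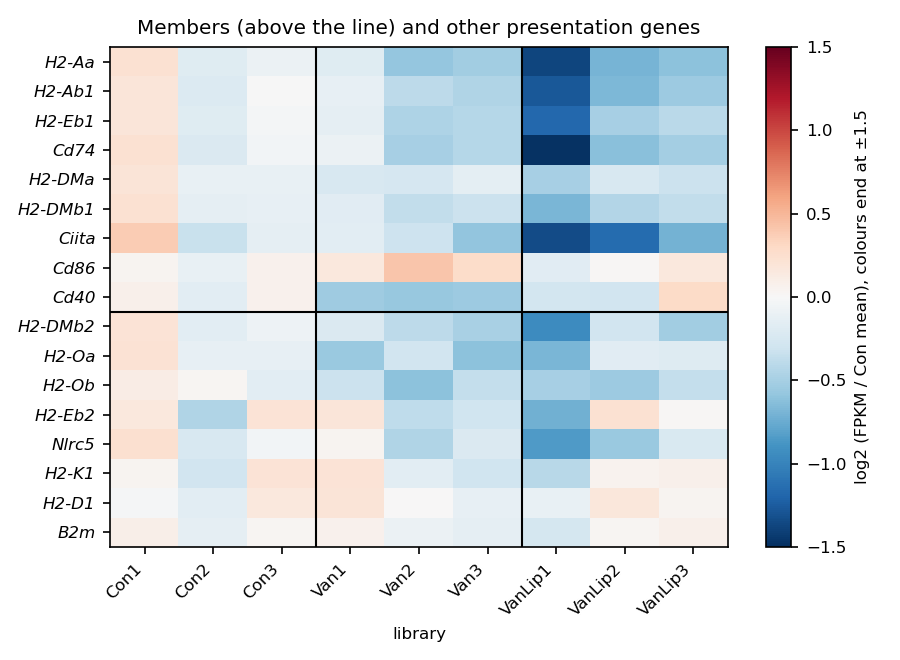
Log2 ratio of the FPKM in each library to the Con mean, for the 9 members (above the horizontal line) and other class II and class I genes (below it), with blue for lower and red for higher and colours ending at 1.5 in either direction; Con1 is Con replicate 1 and so on. The deepest blue is in VanLip1 for H2-Aa, H2-Ab1, H2-Eb1, Cd74 and Ciita, while H2-D1 and B2m stay near white in most libraries.

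Markers of monocytes and of other cell types were examined, since fewer cells of a type and less RNA per cell cannot be told apart in bulk libraries. The monocyte markers were all present (12 of 12 at a mean of at least 1 FPKM), with sums of 11500 to 11881 FPKM in Con, 10540.1 to 11713 in Van and 11585 to 12844 in VanLip. Of 13 B cell markers, 8 were below 1 FPKM in every library and Ebf1 was at 0 in some, while the sum was 344 to 402 FPKM in Con, 256 to 283 in Van and 261 to 327 in VanLip. Ighm made up most of that sum, and with it Van replicate 3 was the lowest library. Without Ighm the sum was 18.5 to 21.3, 15.1 to 16.6 and 14.0 to 19.5 FPKM, with VanLip replicate 1 the lowest of the 9 libraries. Cd22 measured 2.41 FPKM in VanLip replicate 1 and at least 4.17 FPKM in every other library. Cd79b, at 9.10 FPKM in VanLip replicate 1, was above Con replicate 1 (8.36) and all Van libraries (up to 8.92) and below the remaining libraries. DESeq2 called 3 B cell markers lower in Van against Con (Ighm, Ighd and Blk), 1 lower in VanLip against Con (Ighm, by 0.36) and 0 in VanLip against Van. All 13 had negative values in Van against Con (median log2 fold change -0.52). Of the 12 tested in each of the other contrasts, 11 were negative in VanLip against Con (median -0.47) and 4 in VanLip against Van (median 0.12). Of 12 markers of conventional dendritic cells, whose sum was 194 to 223 FPKM in Con, 175 to 206 in Van and 183 to 222 in VanLip, 2 were called lower in Van against Con (Xcr1 and Clec9a). Negative values were held by 11 of the 12 in Van against Con, 8 in VanLip against Con and 4 in VanLip against Van. Without Itgax, the most abundant of them, the sum was 124 to 149.8, 111 to 129.7 and 129.7 to 142 FPKM. Itgax measured 46.2 FPKM in VanLip replicate 1 and 64.0 to 82.4 FPKM in the other 8 libraries, whereas Flt3 and Batf3 were highest in VanLip replicate 1, at 13.9 and 20.9 FPKM. In VanLip against Con, Xcr1 and Cd209a fell and Cd24a rose, and in VanLip against Van, where H2-Ab1 and Ciita fell, Clec9a, Cd24a and Batf3 rose. All 8 markers of red pulp macrophages had a mean of at least 1 FPKM, with sums of 1128 to 1370 FPKM in Con, 1369 to 1759 in Van and 1039 to 1471 in VanLip. All 8 had positive values in Van against Con (median log2 fold change 0.20) and negative ones in VanLip against Van (median -0.23), and Vcam1 was called in both. Of 6 markers of plasmacytoid dendritic cells, with sums of 7.82 to 11.7, 7.79 to 9.94 and 6.14 to 15.6 FPKM in the 3 groups, Siglech fell in Van against Con by 0.89 (DESeq2 adjusted p = 0.0474) and rose in VanLip against Van with a log2 fold change of 0.85 (adjusted p = 0.0299). Of 10 T and NK cell markers, 7 were below 1 FPKM in every library and 0 were called in any contrast by DESeq2, with sums of 13.1 to 17.2, 9.75 to 14.1 and 7.71 to 16.0 FPKM. Of 8 neutrophil markers, Ly6g was at 0 in every library and the sums were 5.42 to 12.8, 2.40 to 11.6 and 3.37 to 4.96 FPKM, and Ngp alone was called, lower in VanLip against Con. The part of any of these cells in the class II differences was not tested in any of the 3 contrasts.

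**Figure D4:**
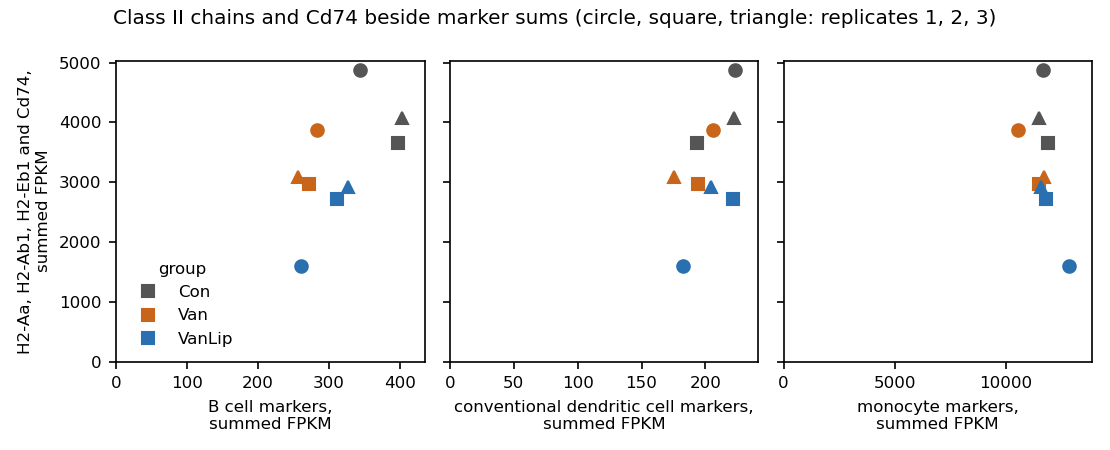
Summed FPKM of H2-Aa, H2-Ab1, H2-Eb1 and Cd74 (vertical axis) against the summed FPKM of markers of B cells, conventional dendritic cells and monocytes (horizontal axes) in each library; all axes start at 0. VanLip replicate 1, the lowest at 1601 FPKM, and Con replicate 1, the highest at 4871, stand at 261 and 344 FPKM for B cells and at 183 and 223 FPKM for conventional dendritic cells. Of the latter, 223 is the highest of the 9 libraries and 183, with Itgax at 46.2 FPKM, the second lowest. Without Itgax every VanLip library lies above every Van library. For B cells, 344 is the lowest Con value, and Van replicate 3, at 256, lies below 261. For monocytes, VanLip replicate 1 is the highest of the 9 libraries, at 12844 FPKM, and Con replicate 1 stands at 11686.

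The log2 (FPKM + 1) values of H2-Aa, H2-Ab1, H2-Eb1 and Cd74 were each centred on the mean, divided by the SD over the libraries and averaged. The genes that followed this average most closely were sought among 7795 genes with a mean of at least 5 FPKM outside the set. Pearson correlation of log2 (FPKM + 1) over the 9 libraries was used. The 10 highest were 9130208D14Rik (r = 0.976), Cyp51 (0.956), Fdps (0.956), H2-T10 (0.956), Med1 (0.949), Tgtp1 (0.948), H2-DMb2 (0.947), Zfyve9 (0.944), Nlrc5 (0.943) and Idi1 (0.941). For Ciita the 5 highest were Usp9x (0.994), Slamf7 (0.979), Nampt (0.966), Kmt2e (0.963) and Nod2 (0.961). These are descriptions over 9 points that share the groups and the libraries standing apart. Over the 6 Con and Van libraries alone, the values of the 10 genes ran from 0.800 for Cyp51 and 0.886 for Tgtp1 to 0.980 for Zfyve9, and those of the 5 genes for Ciita from 0.921 for Nampt to 0.987 for Usp9x.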

How the data were processed

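Per the labels, the authors aligned reads to GRCm38 with HISAT2 2.2.1, handled alignments with SAMtools 1.9 and computed FPKM per gene with StringTie 2.1.3. Expected counts, derived by the authors with tximport, were deposited too, which are not normalised and need not be whole. The annotation release is not given in the sources used here. Of the expressed genes, 99.0% matched GENCODE M21, which gave coordinates. Groups and replicate numbers came from the sample titles.

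Expected counts were rounded and tested in R 4.3.3 with the two-sided Wald test of DESeq2 1.42.0, all 9 libraries in 1 fit with group as the term, and adjusted by the Benjamini-Hochberg method over all genes. Calls needed an adjusted p no higher than 0.05. FPKM served for levels and ratios. Alternatives used edgeR 4.0.16, limma 3.58.1 on quantile-normalised log2 (FPKM + 1) or log2 (FPKM + 0.1), a mean FPKM of at least 1, TMM library sizes, at least 10 counts in at least 3 libraries, no independent filtering, only the groups compared, a replicate block, VanLip thinned to the depth of the others, and leaving out each library. Leaving out Con replicate 1 and VanLip replicate 1 together, and leaving out libraries in the likelihood-ratio test, were chosen after seeing the data. The tests were tested on simulated data first. Named genes were the members, list genes called in any contrast, the leading gene of each role, H2-DMb2 and the genes of highest correlation, with H2-Oa, Irf1, March1, H2-Ea-ps and further markers chosen after their values were seen. The members and lists were chosen with earlier results of these data known. Counting precision is limited by an estimated 16151385 to 46180176 fragments per library, a number inferred from the most frequent low count of each library, and read exchange between copies and overlapping genes is not captured by it.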

Additional observations from a re-analysis of the deposited data

How the results depend on the processing

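The direction of each of the 7 class II genes (H2-Aa, H2-Ab1, H2-Eb1, Cd74, H2-DMa, H2-DMb1 and Ciita) was the same in all 20 alternatives of each contrast, and so was that of Cd86 and Cd40 in Van against Con and in VanLip against Van. In VanLip against Con the value of Cd86, which was -0.00, changed sign with edgeR (0.00828), TMM library sizes (0.0250), a fit of only the groups compared (0.00278) and without Con replicate 1 and VanLip replicate 1 (0.11), and ran from -0.0944 to 0.0886 when 1 library was left out. That of Cd40 turned to 0.10 without both of these libraries and ran from -0.25 to 0.00929 when 1 was left out. Neither was ever called in that contrast.

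The number of calls depended strongly on the test. The edgeR quasi-likelihood test called 0 members in Van against Con, 1 in VanLip against Con and 0 in VanLip against Van, where 3, 7 and 6 had an unadjusted p under 0.05, beside 6, 7 and 5 with DESeq2. It called 0, 0 and 1 of the other pathway genes (9, 10 and 13 at an unadjusted p under 0.05). With limma on log2 (FPKM + 1) and on log2 (FPKM + 0.1), 0 members and 0 pathway genes were called in any contrast (4, 7 and 4 members at an unadjusted p under 0.05 with either pseudocount, and 9, 9 and 9 pathway genes with the first), and at a mean FPKM of at least 1 limma called 0, 2 and 0 members and 0 pathway genes. Over all genes edgeR called 204, 300 and 855, and limma on log2 (FPKM + 1) called 36, 193 and 613, where DESeq2 called 803, 1104 and 1777. At a mean FPKM of at least 1, limma called 102, 398 and 858 of 11710 genes. The cause was not tested.

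TMM library sizes left 2 members called between VanLip and Van, with 1822 of all genes. No independent filtering left 1 pathway gene between Van and Con (698 of all genes), and 3 members, without H2-Ab1, between VanLip and Van (1556 of all genes). Fitting only the groups compared called 5 members between Van and Con, 6, without Cd74, between VanLip and Con, and 2 between VanLip and Van. That fit called 990, 799 and 1492 of all genes, in place of 803, 1104 and 1777. With VanLip thinned to the depth of the others, Van against Con had 2 members and 1 pathway gene called, with 577 of all genes. Without Con replicate 1 and VanLip replicate 1 together, 2, 4 and 2 members were called in the 3 contrasts, and 1 and 3 pathway genes in VanLip against Con and against Van. Of all genes, 645, 534 and 1284 were then called.

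When 1 library was left out, calls in Van against Con ran from 0 (without Con replicate 1 or Van replicate 3) to 4 members (without VanLip replicate 1) and from 0 to 4 pathway genes. In VanLip against Con they ran from 4 (without Con replicate 1) to 7 members and from 0 (without Con replicate 1) to 5 pathway genes. In VanLip against Van they ran from 1 (without VanLip replicate 1, or without Van replicate 2 or 3) to 4 members and from 2 (without Van replicate 2) to 6 pathway genes. The likelihood-ratio test called 5 to 8 members, the lowest without Van replicate 2, with no share over all genes computed for comparison. Where this left 1 group with a pair of libraries, the spread was pooled over groups.

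The replicate numbers share no stated animal, litter or day, and the deviations of same-numbered libraries correlated between -0.065 and 0.123, so the numbers were not taken as pairs. A fit with a replicate block called 1, 5 and 3 members in the 3 contrasts and 1, 2 and 3 pathway genes, with 932, 1146 and 1644 of all genes. In VanLip against Con this fit did not call H2-Aa or Cd74.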

Other observations

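Among the monocyte markers, Ccr2, the chemokine receptor of classical monocytes, varied most, and was singled out after its values were seen. It measured 173, 163 and 159 FPKM in Con, 70.4, 93.0 and 98.2 in Van and 256, 156 and 190.3 in VanLip, so every Van library was below all others and VanLip replicate 1, the library lowest in class II, was highest. Ccr2 fell in Van against Con by 0.83 on the log2 scale (standard error 0.18, DESeq2 adjusted p = 0.00048) and rose in VanLip against Van with a log2 fold change of 1.04 (standard error 0.18, adjusted p = 7.38e-07). In the same contrast Ly6c2 and Cx3cr1 rose with values of 0.39 and 0.43 (adjusted p of 0.0262 and 0.00264). Vcam1, a marker of red pulp macrophages, rose in Van against Con with a value of 0.46 (adjusted p = 0.0106) and fell in VanLip against Van by 0.50 (adjusted p = 0.00176). Whether these differences have a part in those of the class II genes was not tested.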
